A study of Mus musculus with 121 samples.

Results

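Hox genes encode homeodomain transcription factors that lie in 4 clusters, Hoxa, Hoxb, Hoxc and Hoxd. Within a cluster the order of the genes along the chromosome follows the order in which they are used along the head-to-tail axis of the embryo, and in the limb the posterior members mark position from shoulder or hip to digits. Adult fibroblasts and epithelia keep part of this pattern, so the set of Hox transcripts in a tissue is known as a record of where it came from. The members described here were taken by symbol: every probe whose single annotated gene symbol is Hox, a cluster letter a to d and a number. This gave 35 probes for 34 genes of 18069 genes on the array. The choice of Hox genes was made with earlier results of these data known. The Hoxa and Hoxb clusters, on chromosomes 6 and 11, had 10 members each, and the Hoxc and Hoxd clusters, on chromosomes 15 and 2, had 7 each. Hoxd13 had 2 probes, of which the brighter was used.

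The study measured RNA from 6 mouse tumours carried as transplants in the hind legs of male C3H/HeMs mice and irradiated locally with a single dose. By their labels, one tumour is a fibrosarcoma that was induced by radiation (g_8520 or c_8520 in the sample titles, marked by that number in the plots, and called the induced fibrosarcoma below), and the others arose spontaneously: nfsa is a fibrosarcoma, mmca and mca4 are mammary carcinomas, and scc7 and nrs1 are squamous cell carcinomas. One experiment of 81 CodeLink arrays used gamma rays at 0, 30, 50 or 70 Gy, and another of 40 arrays used carbon ions at 30 Gy. The arrays fall into 54 groups, 41 of 2 arrays and 13 of 3. Each tumour is a single transplantable line, so differences between tumours are differences between 6 lines and not between tumour classes. Unirradiated arrays exist in the gamma experiment for the induced fibrosarcoma, nfsa, mmca and mca4 at day 1 and for mmca also at day 9, and in the carbon experiment for mmca and mca4 at hour 0. The labelled control is the unirradiated mouse, and scc7 and nrs1 have irradiated arrays only. Tumours were therefore compared at matched irradiated points: 5 days after carbon ions (2 arrays a tumour), and after 30 Gy of gamma rays at day 8 for the induced fibrosarcoma, scc7 and nrs1, day 9 for nfsa and mmca and day 11 for mca4 (2 arrays of scc7 and 3 of every other tumour). Nothing in the labels states if arrays sharing a group came from separate mice, so every p-value below measures only the spread between arrays, which may be technical.

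Intensities are given as log2 of the deposited value. A probe's brightness depends on its sequence, so levels were compared between samples within a gene and never between genes. Of the Hox values, 8 (0.588%) were missing in the carbon experiment and 185 (6.72%) in the gamma experiment. All 34 genes had values on at least 90% of carbon arrays and were tested there. In the gamma experiment 29 were tested, and Hoxa6, Hoxa13, Hoxb2, Hoxb4 and Hoxd11, missing on 18, 24, 15, 69 and 37 of 81 arrays, were not. Hoxb4, Hoxb1, Hoxd11 and Hoxa6 lay at the floor of measurement (log2 -2.98) on 25, 17, 13 and 8 of 40 carbon arrays. Replicates correlated with a median r of 0.995 in the carbon and 0.993 in the gamma experiment over all genes. The second mca4 array at day 5 after carbon ions stood apart, with 4.92% of all values missing against 0.541% on the most complete carbon array. It read higher than its partner for several dim Hox genes (Hoxa11 -1.22 against -2.06, Hoxa13 -1.77 against -2.76).

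The tumours' labels were checked against marker genes. The summed intensity of 9 epithelial markers, keratins and junction genes, ran over both experiments from 311 to 570 in mmca, 295 to 625 in mca4 and 957 to 1356 in nrs1. In the induced fibrosarcoma it was 1.22 to 5.16 and in nfsa 3.96 to 6.06. In scc7, labelled a squamous cell carcinoma, it was 2.96 to 5.35, in the range of the fibrosarcomas. The sum of 10 fibroblast and mesenchymal markers showed the reverse, from 1089 to 1650 in scc7, 760 to 1540 in the induced fibrosarcoma and 650 to 1593 in nfsa, against 107 to 454 over mmca, mca4 and nrs1. The scc7 arrays thus go against their label, and scc7 is used below only as the name of the line. The samples are bulk tumour tissue, where fewer cells of a kind and less RNA per cell cannot be told apart.

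Most Hox genes differed among the 6 tumours, as did most genes. At day 5 after carbon ions, 31 of 34 Hox genes passed the test over 6 tumours (limma, F test across group means, Benjamini-Hochberg adjusted p under 0.05), against 88.0% of all genes. The exceptions were Hoxb1 (adjusted p = 0.536), Hoxb4 (0.167) and Hoxd11 (0.130), the genes most often at the floor. In the gamma experiment, 24 of 29 passed, against 87.3% of all genes, and Hoxa7, Hoxb3, Hoxb8, Hoxd1 and Hoxd13 did not. Among the unirradiated gamma arrays of 4 tumours, 21 of 29 passed, against 80.0%. With carbon day 5 and gamma 30 Gy as 1 value each per tumour, 11 of 29 passed, against 30.2% of all genes. In number of calls the Hox genes were thus close to the background.

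By size, a minority of Hox genes differed widely. At day 5 after carbon ions, 10 of 34 Hox genes (29.4%) spanned at least 2 log2 units between the lowest and highest tumour mean, against 16.7% of all genes, and 6 (17.6%) spanned at least 3, against 7.09%. After gamma rays 10 of 29 (34.5%) spanned at least 2, against 18.1%, and 7 (24.1%) at least 3, against 8.27%. The median range in the carbon experiment was 0.932 log2 for Hox genes and 0.987 for all genes. The widest ranges after carbon ions were those of Hoxa10 (4.47), Hoxb9 (4.35), Hoxc9 (4.18), Hoxa5 (4.02), Hoxc8 (3.76), Hoxa11 (3.21), Hoxd8 (2.69), Hoxb2 (2.32), Hoxc6 (2.18) and Hoxa13 (2.07). They were followed by Hoxb7 (1.98), Hoxa9 (1.86), Hoxa4 (1.37), Hoxd9 (1.16), Hoxa6 (1.11) and Hoxb5 (1.01). The remaining 18 genes spanned less than 1 log2 unit. A range of at least 1 was found for 16 of 34 Hox genes (47.1%), against 49.2% of all genes. After gamma rays it was found for 13 of 29 (44.8%), against 45.3%. Members of all 4 clusters were among the 7 with the widest ranges.

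**Figure D1:**
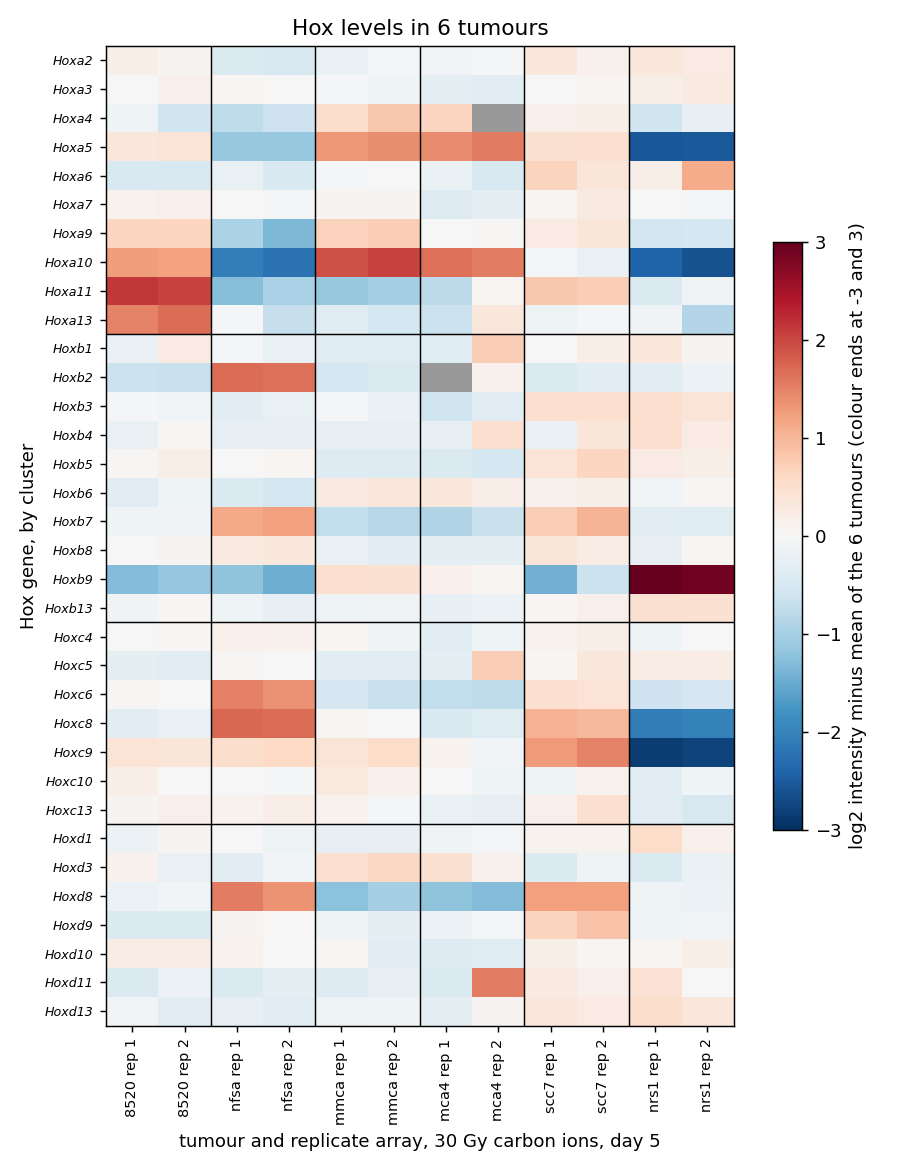
Log2 intensity of the 34 Hox genes (rows, by cluster) on each of the 12 arrays taken 5 days after carbon ions (columns, 2 arrays for each of 6 tumours), as the difference from the mean of the 6 tumours (red higher, blue lower), with grey for a missing value. Hoxa5, Hoxa10, Hoxc8 and Hoxc9 are low in nrs1, Hoxb9 is high in nrs1, Hoxb2 is high in nfsa, and Hoxa11 and Hoxa13 are high in the induced fibrosarcoma.

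Promoter sequences are shown for the 4 of the 7 widest-ranging genes that the RefSeq promoter table of GRCm38.p6 holds. The table matched 20 of the 34 members. Each runs from 250 bases before to 50 bases after an annotated start and is written 5′ to 3′ on the gene's strand, with every CG dinucleotide in capitals, since clusters of CG mark the unmethylated promoters that Polycomb and Trithorax proteins act on. Hoxa10 has 2 annotated starts.
Hoxa5 (chr6:52204538-52204837, minus strand): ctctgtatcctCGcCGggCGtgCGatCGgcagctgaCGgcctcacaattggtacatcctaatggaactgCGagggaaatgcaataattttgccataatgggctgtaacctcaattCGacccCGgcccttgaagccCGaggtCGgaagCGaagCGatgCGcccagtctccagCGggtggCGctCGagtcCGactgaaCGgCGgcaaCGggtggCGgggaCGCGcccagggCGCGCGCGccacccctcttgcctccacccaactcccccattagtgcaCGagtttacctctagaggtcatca
Hoxa10, upstream start (chr6:52240805-52241104, minus strand): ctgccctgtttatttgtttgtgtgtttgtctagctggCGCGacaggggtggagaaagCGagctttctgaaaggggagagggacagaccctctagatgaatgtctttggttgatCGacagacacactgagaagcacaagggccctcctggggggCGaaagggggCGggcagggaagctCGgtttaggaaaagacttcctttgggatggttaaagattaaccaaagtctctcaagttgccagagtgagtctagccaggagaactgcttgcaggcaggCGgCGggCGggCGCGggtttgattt
Hoxa10, downstream start (chr6:52234890-52235189, minus strand): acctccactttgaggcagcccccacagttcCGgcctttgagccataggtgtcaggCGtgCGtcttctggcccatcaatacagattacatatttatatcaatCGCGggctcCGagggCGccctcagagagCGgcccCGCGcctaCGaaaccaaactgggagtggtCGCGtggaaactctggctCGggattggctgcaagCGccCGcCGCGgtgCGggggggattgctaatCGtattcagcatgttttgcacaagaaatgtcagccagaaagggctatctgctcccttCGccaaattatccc
Hoxa11 (chr6:52245761-52246060, minus strand): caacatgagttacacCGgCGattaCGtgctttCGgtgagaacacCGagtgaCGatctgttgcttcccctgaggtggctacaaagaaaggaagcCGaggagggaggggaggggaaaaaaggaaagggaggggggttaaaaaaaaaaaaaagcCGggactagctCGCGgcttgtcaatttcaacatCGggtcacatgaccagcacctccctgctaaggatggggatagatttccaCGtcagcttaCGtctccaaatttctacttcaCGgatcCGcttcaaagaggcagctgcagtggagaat
Hoxd8 (chr2:74704365-74704664, plus strand): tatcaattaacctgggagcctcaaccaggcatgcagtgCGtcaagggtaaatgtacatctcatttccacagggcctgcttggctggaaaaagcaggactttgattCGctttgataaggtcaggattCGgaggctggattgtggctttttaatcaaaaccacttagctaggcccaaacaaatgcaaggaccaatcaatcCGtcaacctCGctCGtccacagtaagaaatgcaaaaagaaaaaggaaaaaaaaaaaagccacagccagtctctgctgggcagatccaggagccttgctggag
The Hoxa5 window holds 29 CG, a number reached by 12.9% of the 32851 promoters in the table. The Hoxa10 windows hold 12 and 21, reached by 39.6% and 24.8%, the Hoxa11 window 15 (34.6%) and the Hoxd8 window 6 (56.4%). The table also holds Hoxa13 and Hoxa9, the next in range among its Hox genes and not printed, with 45 CG (1.93%) and 4 CG (68.6%). The median was 7 CG over all promoters and 14.5 over the 24 Hox promoters. CG dinucleotides read the same on both strands. The arrays carry no measurement of methylation or binding at these windows.

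Of the Hoxa members, Hoxa10, a posterior gene known in the uterus, limb and blood progenitors, gave the widest range. Its log2 intensity on the carbon day-5 arrays was 3.62 and 3.74 in mmca, 3.36 and 3.25 in mca4, 2.96 and 2.91 in the induced fibrosarcoma, 1.68 and 1.49 in scc7, -0.37 and -0.49 in nfsa, and -0.68 and -0.90 in nrs1. The 6 tumours did not overlap, and mmca was 22.2-fold above nrs1. Against the mean of the other 5 tumours, nrs1 was lower (a difference of -3.01 ± 0.081 SE; limma adjusted p = 5.29e-24), and so was nfsa (-2.57 ± 0.081, adjusted p = 6.74e-22). The same 2 tumours were lowest in the gamma experiment, where all 20 nfsa arrays lay between -1.64 and 0.81 and all 6 nrs1 arrays between -1.94 and -0.81, and the lowest array of any other tumour read 2.62. The 2 fibrosarcomas therefore stood at opposite ends of this gene, the induced fibrosarcoma with the carcinomas of the mammary gland and nfsa with nrs1.

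Hoxa5, which acts in lung and mammary development and is known for its loss in breast cancer, had the same 2 lowest tumours as Hoxa10. The log2 intensities were 5.34 and 5.48 in mca4, 5.21 and 5.31 in mmca, 4.37 and 4.41 in scc7, 4.26 and 4.30 in the induced fibrosarcoma, 2.77 and 2.78 in nfsa, and 1.37 and 1.40 in nrs1. The gene was thus low in nrs1, intermediate in nfsa and high in the other tumours. The difference of nrs1 from the others was -3.03 ± 0.092 in the carbon experiment (adjusted p = 9.47e-23) and -4.60 ± 0.12 in the gamma experiment (adjusted p = 5.38e-37). No gamma array of nrs1 exceeded 0.20, and none of another tumour lay under 2.33. Over the 6 tumour means Hoxa5 and Hoxa10 correlated with r = 0.942 in the carbon and 0.894 in the gamma experiment (n = 6 tumours, the same arrays for both genes).

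Hoxa11 and Hoxa13, the genes of the forearm and lower leg and of the hand and foot, marked the induced fibrosarcoma. Hoxa11 read 0.86 and 0.75 in the induced fibrosarcoma, -0.46 and -0.52 in scc7, -1.71 and -1.37 in nrs1, -2.06 and -1.22 in mca4, -2.39 and -2.26 in mmca, and -2.55 and -2.25 in nfsa. It was higher in the induced fibrosarcoma by 2.49 ± 0.20 (adjusted p = 7.76e-12) and, in the gamma experiment, by 2.95 ± 0.11 (adjusted p = 1.68e-28). There scc7 was also above the rest, by 2.10 ± 0.13 (adjusted p = 2.63e-19), and the arrays of the induced fibrosarcoma and scc7 together lay at 0.62 or above while no other array exceeded -1.31. Hoxa13 read -0.62 and -0.43 in the induced fibrosarcoma and between -2.98 and -1.77 in every other tumour, a difference of 1.89 ± 0.28 (adjusted p = 1.40e-06) in the carbon experiment. It was not tested in the gamma experiment, where 24 of its values were missing, and the induced fibrosarcoma again had the highest mean there (-0.923, against -1.69 in mmca).

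Hoxa9, a gene of limb and blood progenitors, was lowest in nfsa. Its day-5 log2 intensities were -2.37 and -2.75 in nfsa, -1.97 and -1.95 in nrs1, -1.41 and -1.37 in mca4, -1.17 and -1.05 in scc7, -0.77 and -0.77 in the induced fibrosarcoma, and -0.71 and -0.68 in mmca. The difference of nfsa from the others was -1.37 ± 0.12 (adjusted p = 5.10e-11) in the carbon and -1.81 ± 0.13 (adjusted p = 1.47e-16) in the gamma experiment. Hoxa4, an anterior member, was highest in mmca, by 0.81 ± 0.13 over the others (adjusted p = 7.84e-06) and by 0.74 ± 0.11 in the gamma experiment (adjusted p = 1.14e-07), with mca4 next in both. The carbon mean of Hoxa4 in mca4 rests on 1 array, since the other day-5 value was missing. The remaining Hoxa members differed little: the tumour means of Hoxa2, Hoxa3 and Hoxa7 spanned 0.75, 0.52 and 0.51 log2, and Hoxa6 spanned 1.11 with the induced fibrosarcoma at the floor.

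Hoxb9, a posterior gene with a role in mammary growth, marked nrs1. On the carbon day-5 arrays it read 2.03 and 1.79 in nrs1, -0.59 and -0.65 in mmca, -0.95 and -1.04 in mca4, -2.40 and -2.26 in the induced fibrosarcoma, -2.32 and -2.56 in nfsa, and -2.56 and -1.76 in scc7. Tumours fell into 3 levels: nrs1 high, the mammary carcinomas intermediate, and the 3 tumours with low epithelial markers lowest. The difference of nrs1 from the others was 3.62 ± 0.17 (adjusted p = 5.53e-18) in the carbon and 3.51 ± 0.25 (adjusted p = 3.17e-17) in the gamma experiment. Every nrs1 array, 10 in all, lay at 0.97 or above, and no array of another tumour exceeded 0.67. The order of the induced fibrosarcoma, nfsa and scc7 differed between the experiments, and 5 gamma values of Hoxb9 were missing, all in these 3 tumours.

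Hoxb2, an anterior gene of the hindbrain, and Hoxb7 marked nfsa. Hoxb2 read 0.08 and 0.07 in nfsa and between -2.26 and -1.47 on every other day-5 array, with 1 mca4 value missing, a difference of 2.0 ± 0.23 (adjusted p = 2.34e-08). In the gamma experiment, where it was not tested, it had a mean of 0.57 in nfsa at day 9 and of -2.19 in the induced fibrosarcoma, the next tumour. Hoxb7 read 2.70 and 2.79 in nfsa, 2.30 and 2.58 in scc7, 1.43 and 1.47 in the induced fibrosarcoma, 1.25 and 1.21 in nrs1, 0.65 and 0.89 in mca4, and 0.83 and 0.71 in mmca. It was higher in nfsa by 1.41 ± 0.073 (adjusted p = 1.31e-16) and in scc7 by 1.05 ± 0.073 (adjusted p = 1.91e-13), and the tumours had the same order in the gamma experiment, where the differences were 2.12 ± 0.096 and 1.06 ± 0.11. Hoxb5 spanned 1.01 log2, with scc7 higher by 0.64 ± 0.086 (adjusted p = 1.83e-07) in the carbon experiment but by 0.02 ± 0.10 (adjusted p = 0.906) in the gamma experiment, so its pattern did not recur. Hoxb3, Hoxb6, Hoxb8 and Hoxb13 spanned 0.95, 0.78, 0.57 and 0.67 log2 after carbon ions. Hoxb13, a tail-end gene known in the prostate, was higher in nrs1 by 0.55 ± 0.066 (adjusted p = 1.95e-08).

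The 3 Hoxc members with wide ranges, Hoxc6, Hoxc8 and Hoxc9, are neighbours used in the trunk. Hoxc8 read 3.68 and 3.64 in nfsa, 3.00 and 2.92 in scc7, 2.01 and 1.98 in mmca, 1.62 and 1.76 in the induced fibrosarcoma, 1.5 and 1.60 in mca4, and -0.13 and -0.08 in nrs1. Hoxc9 read 3.33 and 3.55 in scc7, 2.59 and 2.65 in nfsa, 2.45 and 2.60 in mmca, 2.48 and 2.42 in the induced fibrosarcoma, 2.18 and 1.98 in mca4, and -0.78 and -0.71 in nrs1. Both were far lower in nrs1 than in any other tumour. For Hoxc8 the difference was -2.47 ± 0.089 (adjusted p = 7.02e-21) in the carbon and -4.00 ± 0.18 (adjusted p = 2.06e-25) in the gamma experiment. For Hoxc9 it was -3.37 ± 0.096 (adjusted p = 2.15e-23) and -4.56 ± 0.11 (adjusted p = 1.49e-38). At the upper end the genes parted, with Hoxc8 highest in nfsa, by 2.04 ± 0.089 (adjusted p = 1.77e-18), and Hoxc9 highest in scc7, by 1.65 ± 0.096 (adjusted p = 2.60e-15), each also highest there in the gamma experiment.

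Hoxc6 read 2.0 and 1.88 in nfsa, 0.98 and 0.92 in scc7, 0.54 and 0.49 in the induced fibrosarcoma, and between -0.25 and 0.00 in mmca, mca4 and nrs1, the 3 tumours with epithelial markers. It was higher in nfsa by 1.73 ± 0.075 in the carbon experiment (adjusted p = 1.73e-18) and by 0.96 ± 0.10 in the gamma experiment (adjusted p = 5.72e-12), where scc7 had the highest mean (1.57, against 1.34 in nfsa). The other 4 Hoxc members were flat by comparison: Hoxc4, Hoxc5, Hoxc10 and Hoxc13 spanned 0.37, 0.56, 0.46 and 0.71 log2 after carbon ions. Hoxc10 spanned more in the gamma experiment, 1.02 log2, with nrs1 lowest in both.

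In the Hoxd cluster only Hoxd8, a gene of the trunk, spanned more than 2 log2 units. It read 3.35 and 3.15 in nfsa, 3.05 and 3.04 in scc7, 1.63 and 1.73 in the induced fibrosarcoma, 1.67 and 1.64 in nrs1, 0.59 and 0.82 in mmca, and 0.60 and 0.53 in mca4. There were 3 levels, nfsa with scc7, the induced fibrosarcoma with nrs1, and the 2 mammary carcinomas. The gene was higher in nfsa by 1.72 ± 0.078 (adjusted p = 5.65e-18) and in scc7 by 1.47 ± 0.078 (adjusted p = 2.79e-16), and in the gamma experiment by 2.41 ± 0.17 and 2.62 ± 0.21. Hoxd9 was higher in scc7 in both experiments, by 0.92 ± 0.087 (adjusted p = 3.01e-10) and 0.72 ± 0.13 (adjusted p = 9.85e-06). Hoxd1, Hoxd3, Hoxd10 and Hoxd13 spanned 0.60, 0.87, 0.61 and 0.71 log2 after carbon ions. Among the posterior Hoxd genes of the limb, Hoxd10 had its highest day-5 mean in the induced fibrosarcoma (1.47, against 1.37 in nrs1), by 0.27 ± 0.096 over the others (limma adjusted p = 0.0169), a call lost in 2 of 12 fits without a single array. After gamma rays the difference of Hoxd10 was 0.06 ± 0.083 (adjusted p = 0.583). Hoxd13 had its highest mean in nrs1 (-1.45), and Hoxd11 was at the floor on 13 of 40 carbon arrays.

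**Figure D2:**
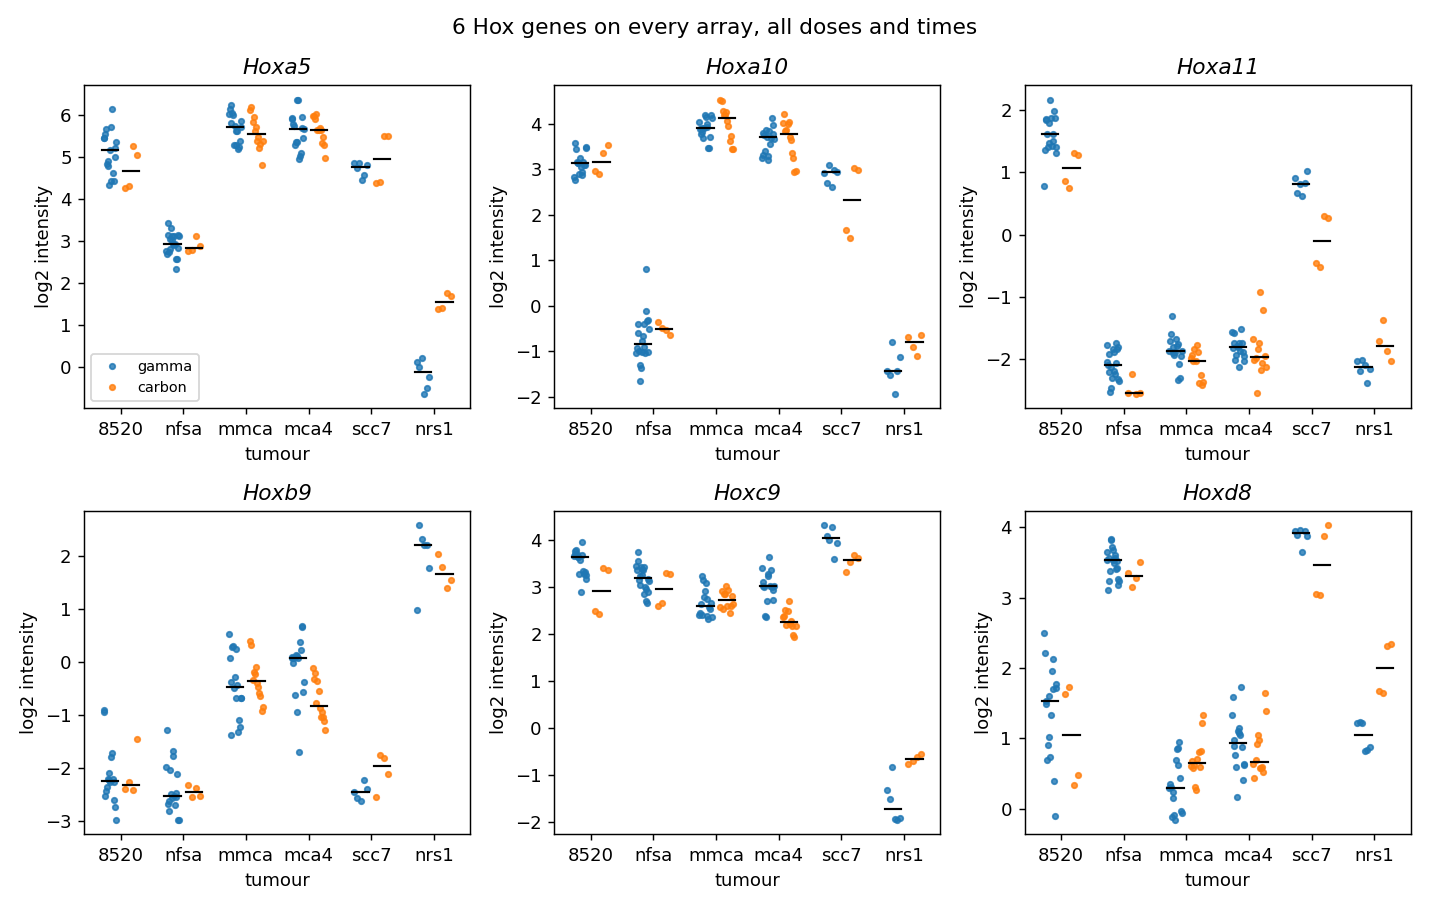
Log2 intensity of Hoxa5, Hoxa10, Hoxa11, Hoxb9, Hoxc9 and Hoxd8 on every array of both experiments (points, by tumour, gamma in blue and carbon in orange, with a black bar at the median). Hoxb9 is above 0.67 on nrs1 arrays alone, and Hoxc9 is low on all nrs1 arrays at every dose and day.

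Each tumour was also compared with the mean of the other 5. At day 5 after carbon ions, 14 of 34 Hox genes differed in the induced fibrosarcoma (7 higher, 7 lower; 52.3% of all genes), 18 in nfsa (7 higher, 11 lower; 54.6%), 19 in mmca (9 higher, 10 lower; 55.6%), 17 in mca4 (4 higher, 13 lower; 56.2%), 19 in scc7 (18 higher, 1 lower; 60.4%) and 21 in nrs1 (10 higher, 11 lower; 66.3%). As shares of 34, these counts were close to or below the shares of all genes called. On the scc7 arrays the median gene was 0.16 log2 above the other tumours. After quantile normalization that median was 0.01, and the scc7 split of Hox genes became 13 higher and 4 lower. For nrs1 the split became 6 higher and 15 lower, and for mmca 9 higher and 6 lower. In the gamma experiment 17 of 29 differed in the induced fibrosarcoma (14 higher and 3 lower, against 48.0% of all genes). In nfsa 23 differed (15 higher and 8 lower, 63.0%) and in nrs1 19 (2 higher and 17 lower, 56.3%). The counts were 16 in mmca (10 and 6, 50.1%), 16 in mca4 (4 and 12, 49.8%) and 14 in scc7 (12 and 2, 46.8%). As shares of 29, the gamma counts were close to or above the shares of all genes called.

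Most of the wide-ranging genes held their pattern across the 2 experiments, which used separate arrays. No matching value over all genes of such a range is given here. For the 15 genes with a carbon range of at least 1 log2, the correlation of the 6 tumour means between carbon day 5 and gamma days 8 to 11 had a median of 0.935 (0.325 to 0.988). The highest tumour was the same for 10 of them and the lowest for 7. For the 16 genes with narrower ranges the median r was 0.254, the highest tumour was the same for 2 and the lowest for 8. The carbon means that enter these correlations also set the split at 1 log2. The least stable of the wide genes were Hoxd9 (r = 0.325) and Hoxb5 (r = 0.355), and the most stable were Hoxc9 (0.988), Hoxb9 (0.986) and Hoxa10 (0.976).

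**Figure D3:**
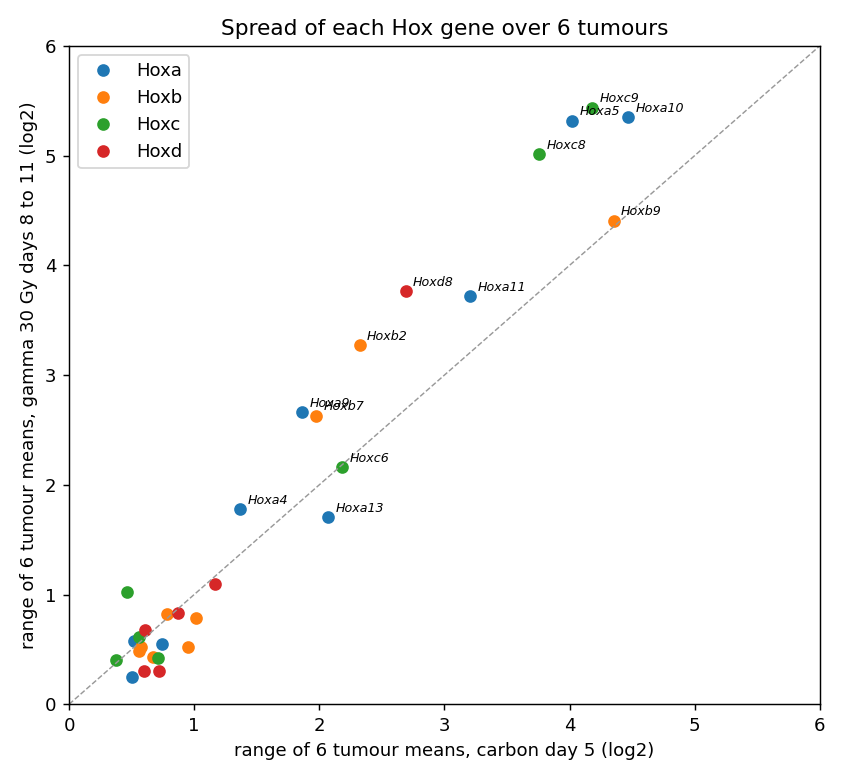
Range of the 6 tumour means (log2, highest minus lowest) for each of 31 Hox genes at day 5 after carbon ions (x axis) and after 30 Gy of gamma rays at days 8 to 11 (y axis), coloured by cluster. Hoxa5, Hoxa10, Hoxa11, Hoxb9, Hoxc8 and Hoxc9 exceed 3 log2 in both experiments, and 16 members lie under 1 after carbon ions.

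Over all arrays of an experiment, irradiated or not and at any time, some Hox genes divided the tumours with no overlap at all. In the gamma experiment 10 of 29 Hox genes (34.5%) had a value that all arrays of some tumours exceeded and all arrays of the rest did not reach, against 13.6% of all genes. In the carbon experiment, with fewer arrays, it was 16 of 34 (47.1%), against 31.4%. The same tumours were on the same sides in both experiments for 5 of 29 (17.2%), against 8.24% of all genes. These were Hoxa10, high in the induced fibrosarcoma, mmca, mca4 and scc7, Hoxb9, high in nrs1, Hoxc8 and Hoxc9, low in nrs1, and Hoxd8, high in nfsa and scc7. For Hoxd8 the nfsa and scc7 arrays reached down to 3.11 in the gamma and 3.04 in the carbon experiment, and the highest value of another tumour was 2.50 and 2.34.

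The share of a gene's variance that lay between tumours, rather than between groups of a tumour or arrays of a group, had a median of 67.1% for Hox genes in the carbon and 48.2% in the gamma experiment, against 60.3% and 45.4% for all genes. At least 75% lay between tumours for 13 of 34 Hox genes (38.2%, against 28.0% of all genes) and 11 of 29 (37.9%, against 18.5%). For Hoxa10 the share was 95.3% in the carbon and 97.4% in the gamma experiment, and for Hoxa11 92.0% and 97.7%. For Hoxb3 it was 63.0% and 13.5%, so its variance in the gamma experiment lay mostly between groups of the same tumour. When each array was matched to the nearest tumour profile of the other experiment over the 29 Hox genes, 64 of 81 gamma arrays and 26 of 40 carbon arrays went to their own tumour. All mismatches were between mmca and mca4, so that all 81 and 40 arrays went to their own tumour or to the other mammary carcinoma. With all 14841 genes the corresponding numbers were 72 of 81 and 20 of 40, with 81 and 32 when the mammary carcinomas were counted as one.

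Genes of one cluster did not move as a block across tumours. Among pairs of wide-ranging genes, the median r over 6 tumours was 0.373 for 31 pairs of the same cluster and -0.024 for 89 pairs of different clusters in the carbon experiment, and 0.514 and 0.167 in the gamma experiment. The 3 Hoxc pairs had a median of 0.805 and 0.879, and the 21 Hoxa pairs 0.241 and 0.455. Some pairs from different clusters were as alike: Hoxb7 and Hoxd8 correlated with r = 0.988 and 0.948, and Hoxb7 and Hoxc6 with r = 0.948 and 0.782. Within the Hoxb cluster, Hoxb7 and Hoxb9 ran against each other (r = -0.551 and -0.624). These coefficients rest on 6 tumours and on genes measured on the same arrays. Gamma pairs with Hoxa6 leave out nfsa, where Hoxa6 had no value at day 9.

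Tumours of one labelled class were compared directly. The 2 fibrosarcomas differed in 13 of 34 Hox genes at day 5 after carbon ions (7 higher and 6 lower in the induced fibrosarcoma; 30.8% of all genes). Hoxa10 was higher in the induced fibrosarcoma by 3.37 ± 0.11 and Hoxa11 by 3.20 ± 0.26, and Hoxb2 (-2.32 ± 0.30) and Hoxc8 (-1.97 ± 0.11) were lower. The 2 tumours labelled squamous, scc7 and nrs1, differed in 16 of 34 (14 higher and 2 lower in scc7; 55.1%), with Hoxc9 higher in scc7 by 4.18 ± 0.12, Hoxc8 by 3.07 ± 0.11, Hoxa5 by 3.00 ± 0.12 and Hoxa10 by 2.38 ± 0.11, and Hoxb9 lower (-4.07 ± 0.22). In the gamma experiment at days 8 to 11, 16 of 29 differed between the fibrosarcomas (50.1%) and 18 of 29 between scc7 and nrs1 (51.2%), and among unirradiated arrays 13 of 29 differed between the fibrosarcomas (38.5%). Both pairs therefore differed by more than 3 log2 units in single Hox genes.

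Between the 2 mammary carcinomas few Hox genes differed after irradiation. Of 34 Hox genes, 5 differed at day 5 after carbon ions, all higher in mmca, against 8.49% of all genes: Hoxa9 by 0.69, Hoxc9 by 0.45, Hoxc8 by 0.44, Hoxa7 by 0.42 and Hoxa10 by 0.38. After quantile normalization 6 were higher and 0 lower. The count rested on single arrays, and fell to 1 without the first mmca array, to 2 without the second and to 3 without the second mca4 array. At days 9 and 11 after 30 Gy of gamma rays 0 of 29 passed by limma, against 1.67% of all genes, and 3 had an unadjusted p under 0.05. Among unirradiated gamma arrays 9 of 29 passed, against 44.0%.

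The second question was whether irradiation or time moved these genes. One day after gamma rays, over the mean of the induced fibrosarcoma, nfsa, mmca and mca4 and of 30, 50 and 70 Gy, 19 of 28 Hox genes differed from unirradiated arrays (6 higher, 13 lower), against 54.1% of all genes. The largest changes were those of Hoxb3 (-0.85 ± 0.093, limma adjusted p = 7.06e-11), Hoxb9 (-0.77), Hoxa3 (-0.51), Hoxd9 (0.45), Hoxc10 (-0.43), Hoxd8 (-0.36), Hoxa10 (0.33) and Hoxc5 (-0.33). Each was under 1 log2 unit as a mean, and Hoxb3 changed by -1.08 in the induced fibrosarcoma and -1.07 in mca4. The 6 tumour means after carbon ions spanned 4.47 log2 in Hoxa10, 4.35 in Hoxb9, 2.69 in Hoxd8 and 1.16 in Hoxd9. They spanned 0.95 in Hoxb3, 0.56 in Hoxc5, 0.52 in Hoxa3 and 0.46 in Hoxc10. The median change was -0.09 over the Hox genes and -0.03 over all genes. Within single tumours the counts were 17 of 29 in the induced fibrosarcoma (44.4% of all genes), 9 in nfsa (22.5%), 0 in mmca (25.5%, with 5 Hox genes at an unadjusted p under 0.05 by limma) and 11 of 28 in mca4 (35.6%). With 1 value per group, 2 of 29 passed, against 7.46% of all genes. There the dose groups of a tumour counted as separate values and shared its control group. After quantile normalization the split was 7 higher and 10 lower.

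At days 8 to 25 after gamma rays 25 of 29 Hox genes differed from unirradiated arrays of the same 4 tumours, against 69.4% of all genes. The control was of day 9 for mmca and of day 1 for the induced fibrosarcoma, nfsa and mca4. With a day-1 control, irradiation and time cannot be told apart. Of the 29 tested, 18 were lower, against 36.6% of all genes tested, and 7 were higher, against 32.8%. The median change was -0.21 over the Hox genes and -0.02 over all genes. After quantile normalization the median of all genes was -0.09 and the split was 4 higher and 20 lower, with Hoxb1 and Hoxd13 on the other side of 0. Hoxb3, an anterior gene of the hindbrain and neck, fell most. Its unirradiated log2 intensities at day 1 were 5.07 and 5.20 in the induced fibrosarcoma, 5.34 and 4.83 in nfsa, 4.61 and 4.69 in mmca, and 5.10 and 5.17 in mca4, and at day 9 in mmca 4.27 and 5.28. After 30 Gy they were 3.84, 3.55 and 3.39 in the induced fibrosarcoma at day 8, 4.10, 4.06 and 3.99 in nfsa at day 9, 3.48, 3.69 and 3.74 in mmca at day 9, and 3.84, 3.36 and 3.53 in mca4 at day 11. All late arrays given here lay below all unirradiated ones, and the mean change was -1.48 ± 0.092 (adjusted p = 8.64e-20). After carbon ions unirradiated mmca read 2.89 and 2.98 and mca4 2.76 and 3.12, and at day 20 they read 2.89 and 2.52, and 2.04 and 2.82, a change of -0.37 ± 0.12 (adjusted p = 0.00601) that was lost in 3 of 8 fits without a single array.

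Hoxc13, a posterior gene known in hair and nails, rose by 0.95 ± 0.062 (adjusted p = 4.38e-19). It read -0.05 and 0.21 in the unirradiated induced fibrosarcoma, 0.35 and 0.27 in nfsa, 1.49 and 1.09 in mmca at day 1, 1.12 and 0.88 in mmca at day 9, and 0.30 and 0.52 in mca4. After 30 Gy, at the same late days, the values were 1.25, 1.26 and 1.54 in the induced fibrosarcoma, 1.16, 1.23 and 1.31 in nfsa, 1.52, 1.62 and 1.65 in mmca, and 1.49, 1.60 and 1.47 in mca4. In each tumour every one of these late arrays was above every unirradiated one, and all late values given here lay between 1.16 and 1.65. At day 20 after carbon ions Hoxc13 differed from unirradiated arrays by -0.037 in mmca and 0.20 in mca4 (limma adjusted p = 0.854 and 0.118), and the difference between the experiments was not tested. Further changes were those of Hoxb6 (-0.76), Hoxa3 (-0.71), Hoxc10 (-0.61), Hoxb9 (-0.59), Hoxa2 (-0.59) and Hoxb7 (-0.55). In mmca, the tumour with a day-9 control, Hoxb6 (-0.51) and Hoxa2 (-0.62) were called lower. There Hoxa3 (0.018), Hoxc10 (-0.006), Hoxb9 (0.19) and Hoxb7 (-0.21) were not called. Within single tumours 24 of 29 differed in the induced fibrosarcoma (62.0% of all genes), 15 in nfsa (52.6%), 11 in mmca (35.9%) and 21 in mca4 (57.9%). With 1 value per group, 11 of 29 passed, against 27.0% of all genes.

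Array quality moved with the gamma groups. The share of missing values was 10.1 to 15.2% (median 13.6%) on unirradiated arrays of day 1, 13.6 to 15.3% at 30 Gy, 10.1 to 15.1% at 50 Gy and 10.4 to 11.4% at 70 Gy of day 1, and 12.5 to 18.6% (median 14.2%) on the later irradiated arrays. The 2 unirradiated mmca arrays of day 9 had 9.99 and 10.4%. Its part in the changes of Hoxb3, Hoxc13 and the other genes was not tested. Between 70 and 30 Gy at day 1, where the shares of missing values did not overlap, 12 of 29 Hox genes differed (6 higher, 6 lower), against 42.7% of all genes. After quantile normalization the split was 14 higher and 1 lower, and the median of all genes moved from -0.01 to 0.18 log2, so no direction with dose is given for these genes. Unirradiated mmca differed between day 9 and day 1 in 4 of 29 Hox genes, against 17.1% of all genes: Hoxb9 (-1.18), Hoxa3 (-0.68), Hoxc10 (-0.43) and Hoxb5 (-0.38) were lower at day 9.

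One Hox gene with a single high tumour, Hoxb2, could be followed in nfsa through the gamma experiment without a test. Unirradiated arrays read 1.66 and 1.72. One day after irradiation the values were 0.98 and 1.19 at 30 Gy, 1.69 and 1.35 at 50 Gy, and 1.2 and 0.99 at 70 Gy. At day 4 they were -0.02 and 0.05 at 30 Gy and -0.45 and -0.66 at 50 Gy, and at day 9 they were 0.84, 0.43 and 0.44 at 30 Gy and -0.31, -0.54 and -0.06 at 50 Gy. Every day-4 and day-9 value given here was below every unirradiated one. At both days the 50 Gy values given were below those at 30 Gy. Each day-4 group holds 3 arrays, of which 2 values are given. The mean of Hoxb2 in each other tumour at days 8 to 11, at most -2.19, remained below the lowest of these nfsa values. Markers of other cells moved in the same arrays. The macrophage sum of nfsa was 183 to 210 unirradiated and at least 454 at days 4 and 9. At day 9 the muscle sum was 26.7 to 197 at 30 Gy and 286 to 1820 at 50 Gy, and the T and NK cell sum 5.81 to 7.64 and 25.8 to 52.1. Their part in the levels of Hoxb2 was not tested.

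The mammary carcinomas were followed after carbon ions at 3 steps. At hour 6 and day 1, over mmca and mca4, 5 of 34 differed from unirradiated arrays, all lower, against 20.2% of all genes and 10.2% called lower: Hoxb9 (-0.42), Hoxa9 (-0.32), Hoxa5 (-0.27), Hoxb6 (-0.25) and Hoxa10 (-0.23). The count was 3 without the first unirradiated mca4 array or the second mca4 array of hour 6, and 0 by limma in 1 fit over the arrays of both experiments, where 5 had an unadjusted p under 0.05. At days 3 and 5, 16 of 34 differed, all lower, against 55.8% of all genes and 33.6% called lower. The median change was -0.17 over the Hox genes and -0.05 over all genes. The largest changes were those of Hoxb9 (-0.82), Hoxb6 (-0.72), Hoxa2 (-0.70), Hoxa10 (-0.66), Hoxa9 (-0.64), Hoxa5 (-0.62), Hoxa4 (-0.50) and Hoxc6 (-0.38). At day 20, 18 of 34 differed, against 63.9% of all genes, 14 lower (38.4%) and 4 higher (25.5%), with a median change of -0.23 over the Hox genes and -0.10 over all genes. Within mmca the counts at the 3 steps were 5 (18.1% of all genes), 12 (48.4%) and 13 (54.5%), and within mca4 they were 1 (9.66%), 14 (43.0%) and 15 (56.3%). The single mca4 call of the first step was Hoxd8, which was higher (0.37 ± 0.088, adjusted p = 0.00500). All of these comparisons share the unirradiated arrays of their tumour, which are of hour 0, so irradiation and time cannot be told apart.

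Hoxa10, Hoxb6, Hoxb9, Hoxa4, Hoxa2 and Hoxa5 fell by about 1 log2 unit by day 20. Hoxa10 read 4.54 and 4.50 in unirradiated mmca and 3.46 and 3.44 at day 20, and in mca4 it read 4.03 and 4.23, and then 2.95 and 2.97, a mean change of -1.12 ± 0.074 (adjusted p = 2.85e-14). Hoxb6, a trunk gene, read 4.10 and 4.01 in mmca and then 2.98 and 2.96, and in mca4 4.11 and 4.12 and then 3.01 and 2.95 (-1.11 ± 0.067). Both genes fell in both tumours with no overlap between arrays. Hoxb9 went from 0.39 and 0.31 to -0.93 and -0.85 in mmca and from -0.11 and -0.32 to -1.11 and -1.29 in mca4 (-1.11 ± 0.15). Hoxa5 went from 6.10 and 6.18 to 4.81 and 5.39 in mmca and from 5.97 and 5.97 to 5.28 and 4.98 in mca4 (-0.94 ± 0.084). Hoxa2, an anterior gene of the hindbrain, went from -0.52 and -0.50 to -1.53 and -1.43 in mmca and from -0.24 and -0.41 to -1.28 and -1.67 in mca4 (-1.06 ± 0.11). Hoxa4 (-1.10 ± 0.12) and Hoxa9 (-0.96) also fell. At the late gamma days Hoxa9 changed by -0.27 in mmca and 0.84 in mca4 (limma adjusted p = 0.22 and 4.56e-05).

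Hoxd8 moved the other way. It read 0.61 and 0.68 in unirradiated mmca and 1.22 and 1.33 at day 20, and in mca4 0.64 and 0.43, and then 1.65 and 1.40, a rise of 0.81 ± 0.072 (adjusted p = 2.20e-11). This gene was lowest in the mammary carcinomas among the 6 tumours, and at day 20 it remained below the 3.04 of the lowest scc7 or nfsa array. At the late gamma days Hoxd8 changed by 0.32 in mmca and -0.55 in mca4 (limma adjusted p = 0.277 and 0.0307), so its rise did not recur there. Of the other 3 genes called higher, Hoxd11 (0.66), Hoxc8 (0.23) and Hoxd10 (0.22), the calls were lost when single arrays were left out, in 6, 3 and 4 of 8 such fits.

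**Figure D4:**
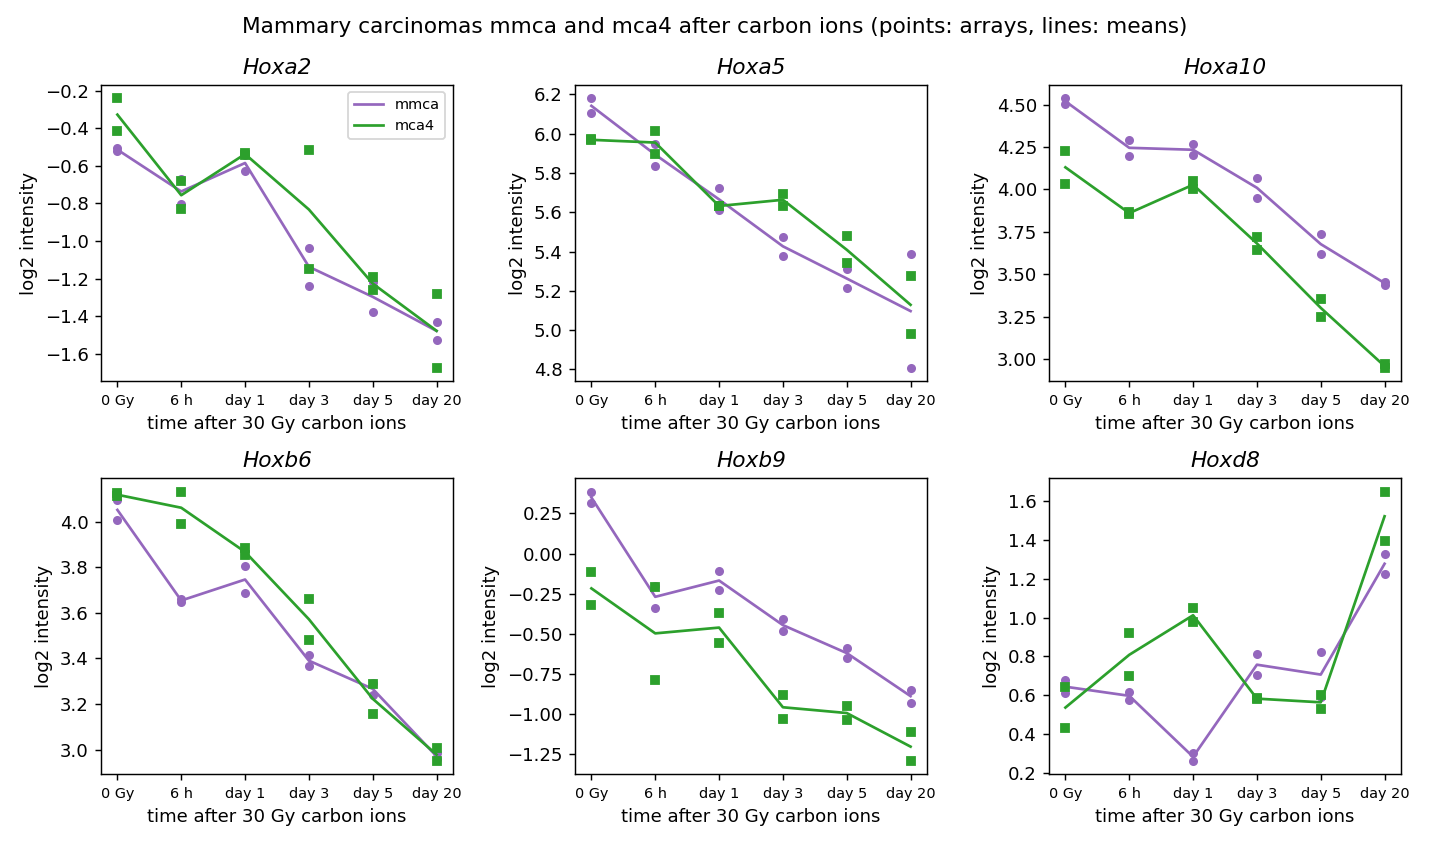
Log2 intensity of Hox genes in mmca and mca4 before and at hour 6 and days 1, 3, 5 and 20 after 30 Gy of carbon ions (points are single arrays, 2 a time, lines join the means, and the times are evenly spaced and not to scale). Hoxa10 and Hoxb6 end about 1 log2 unit below the unirradiated arrays in both tumours, and Hoxd8 ends above them.

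Markers of other cells rose in the same arrays. At day 20 all 4 tested macrophage markers were higher, with a median change of 2.20 log2, and their summed intensity went from 114 to 126 up to 357 to 363 in mmca and from 94.0 to 103 up to 400 to 462 in mca4. Of 6 T and NK cell markers 5 were higher (median 2.78), of 10 fibroblast and mesenchymal markers 9 (1.52), and all 10 skeletal muscle markers (2.53). Of all genes 25.5% were called higher at day 20 and 38.4% lower. Epithelial markers were not lower as a group: 6 of 8 rose and 1 fell, with a median of 1.10, and their sum went from 314 to 363 up to 529 to 531 in mmca and from 367 to 384 up to 552 to 625 in mca4. The part of these cells in the falls of Hoxa10, Hoxb6, Hoxa5 and the other genes, and in the rise of Hoxd8, was not tested. At the late gamma days the 4 macrophage markers rose by a median of 1.21 and the 3 tested T and NK cell markers by 2.14. There 0 of 9 muscle markers passed (median -0.26), against 69.4% of all genes.

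Falls in both mammary tumours and both experiments, each with its own controls, were found for 5 of 29 Hox genes, against 4.97% of all genes, when late gamma and day-20 carbon arrays were each set against unirradiated arrays. These were Hoxa2, Hoxa4, Hoxa5, Hoxb6 and Hoxc6. Of the controls only that of mmca in the gamma experiment was of a later day (day 9). The mca4 gamma control was of day 1 and the carbon controls of hour 0, so there irradiation and time cannot be told apart. Hoxb6 changed by -0.51 in mmca and -0.97 in mca4 after gamma rays and by -1.08 and -1.14 after carbon ions. Hoxa5 changed by -0.68 and -0.74 and then by -1.05 and -0.84. Hoxa2 changed by -0.62 and -0.79, and by -0.97 and -1.15, and Hoxa4 by -0.37 and -0.50, and by -1.11 and -1.08. Hoxc6 changed least, by -0.41 and -0.34, and by -0.55 and -0.39. No Hox gene rose in all 4 comparisons, against 7.13% of all genes. Hoxa10, which fell by 1.07 and 1.17 after carbon ions, changed by 0.02 and 0.40 after gamma rays (limma adjusted p = 0.963 and 0.143), and the difference between the experiments was not tested.

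Later time points could be compared within irradiated tumours. Between days 5 and 20 after carbon ions, over 5 tumours, 11 of 34 Hox genes differed, 10 higher at day 20 and 1 lower, against 42.1% of all genes and 26.0% called higher. The changes were small, led by Hoxc9 (0.38), Hoxb13 (0.35), Hoxb6 (0.29) and Hoxa9 (0.24), and with the tumours as replicates 0 of 34 passed by limma, 0 had an unadjusted p under 0.05, and no gene of the array passed. Within single tumours 12 differed in the induced fibrosarcoma (45.3% of all genes), 6 in nfsa (27.8%), 2 in mmca (19.8%), 5 in mca4 (28.2%) and 8 in nrs1 (40.9%). In scc7, 11 of 34 were higher at day 42 than at day 5 and none lower, against 38.0% of all genes and 18.2% called higher. Hoxa10 went from 1.68 and 1.49 to 3.04 and 3.00 (1.43 ± 0.11) and Hoxa5 from 4.37 and 4.41 to 5.49 and 5.49 (1.10). Both genes thus ended above the day-5 level in scc7 with no overlap. Hoxd8 (0.90), Hoxa9 (0.90), Hoxa11 (0.77) and Hoxb6 (0.76) were higher too. In the same arrays the T and NK cell sum went from 204 to 208 down to 51.0 to 57.4, the muscle sum from 829 to 996 down to 584 to 638, and the fibroblast and mesenchymal sum from 1199 to 1370 up to 1574 to 1650. Their part in these changes was not tested. After gamma rays, scc7 at days 23 and 35 after 50 Gy differed in 0 of 29 Hox genes by limma, against 0.423% of all genes, and 3 had an unadjusted p under 0.05. In nrs1, 3 of 29 were lower at day 15 after 50 Gy than at day 8 after 30 Gy, against 5.59% of all genes: Hoxc9 (-0.71), Hoxa5 (-0.57) and Hoxb6 (-0.46), genes already low in that tumour in the case of Hoxc9 and Hoxa5. The fibroblast and mesenchymal sum was 304 to 387 at day 8 and 171 to 239 at day 15, and its part in these differences was not tested.

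Genes that work with or on Hox genes also differed among tumours. At day 5 after carbon ions the F test over 6 tumours was passed by 88.0% of all genes. It was passed by 6 of 7 tested cofactors, 13 of 15 Polycomb genes and 6 of 6 genes listed with Trithorax. Of the genes that flank the clusters 8 of 9 passed, and of those acting upstream through retinoic acid or Cdx factors 7 of 8. Of the transcription factors of limb and mesenchyme position 19 of 20 passed. Of the cofactors, which bind DNA beside Hox proteins, Meis1 and Meis2 were higher in nrs1, by 1.57 ± 0.10 and 1.38, and Meis2 was lower in the induced fibrosarcoma (-2.01 ± 0.083). Of the position genes, Pitx1, the hindlimb factor, was higher in nrs1 by 2.45 ± 0.18, Prrx1, a factor of limb mesenchyme, was lower there (-2.49 ± 0.11), and Emx2 was higher in nfsa by 3.56 ± 0.13 and in the induced fibrosarcoma by 2.97.

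At day 20 after carbon ions, 12 of 15 Polycomb genes differed from unirradiated mmca and mca4, 11 lower and 1 higher. Of all genes 63.9% differed, 38.4% lower and 25.5% higher, and these shares apply to every list in this paragraph. Ezh2, the methyltransferase that silences Hox clusters, fell by 1.45 ± 0.073 (limma adjusted p = 3.87e-17), Suz12 by 0.89 ± 0.068, Rbbp7 by 0.73 and Rbbp4 by 0.68. Of 6 genes listed with Trithorax as keeping Hox genes active, 4 were lower and 1 higher. Wdr5 changed by -0.86, Men1 by -0.71, Ash2l by -0.66 and Dot1l by -0.55. Cofactors split evenly (3 higher, 3 lower of 7; Pknox2 -1.27, Meis2 0.87, Meis3 0.76 and Pbx3 -0.70), as did the flanking genes (3 higher, 3 lower of 9) and the upstream genes (3 higher, 3 lower of 8; Rarb 2.95, Aldh1a2 2.08, Cyp26a1 1.98 and Cdx1 -0.71). Of the flanking genes Ttll6 rose by 0.84 and Skap2 by 0.42, and Smug1 fell by 0.59 and Mtx2 by 0.39. Of 20 genes of limb and mesenchyme position 4 were higher and 7 lower (Pax9 -1.32, Emx2 1.28, Twist1 -1.24 and Tbx15 -1.04). The same immune and stromal markers rose in these arrays, and their part in these changes was not tested.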

How the data were processed

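Tumour RNA was measured on 121 1-colour CodeLink arrays (Cy5), with the RNA extracted by ISOGEN and RNeasy per the labels' protocols. The values are linear intensities as deposited by the authors; how background, scale and filter were set is not given in the sources used here. Array medians were 1.31 to 1.85 in the gamma and 1.04 to 1.07 in the carbon experiment, and 9.99 to 18.6% and 0.541 to 4.92% of values were missing. The number of arrays limits the precision. Of 36227 probes, 21615 had 1 gene symbol in the platform annotation, 681 several and 13931 none. Each of the 18069 genes was read from its brightest probe. Values below 0.127 (5th percentile) were set to that floor, values were then put on the log2 scale and missing ones left missing. Genes with values on at least 90% of an experiment's arrays were tested, 17929 in the carbon and 14941 in the gamma experiment. Each experiment had its own limma 3.58.1 fit (R 4.3.3) of group means with a mean-variance trend, with two-sided tests and Benjamini-Hochberg adjustment over all genes. ± is the standard error of the fit. The fits were tested on simulated data. Groups came from the titles. The Hox members and the lists of other genes were chosen with earlier results of these data known. Tested members are named, up to the 8 with the largest change in a comparison of irradiation or time, and up to 4 genes of each other list. Alternatives were quantile normalization, a brightness filter, another floor, missing values at the floor, 1 fit over all arrays, no trend, the second brightest probe, a replicate block, another mmca control, 1 value per group and leaving out each array.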

Additional observations from a re-analysis of the deposited data

Results flagged for a closer look

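The change of 7 Hox genes at day 1 after gamma rays differed among the induced fibrosarcoma, nfsa, mmca and mca4 by an F test of the difference itself (limma), out of 28 tested, against 44.0% of all genes. For Hoxc10 (adjusted p = 6.69e-05) the changes were -0.87 in the induced fibrosarcoma, -0.24 in nfsa, -0.18 in mmca and -0.43 in mca4. For Hoxc13 (adjusted p = 0.000744) they were 0.75, 0.36, -0.15 and 0.31, and for Hoxd9 (adjusted p = 0.00123) 0.88, 0.37, -0.07 and 0.61. For Hoxb8 (adjusted p = 0.0151) they were -0.13, -0.13, 0.34 and -0.61, and for Hoxa11 (adjusted p = 0.0155) 0.49, -0.20, -0.06 and -0.12. For Hoxb3 (adjusted p = 0.0394) they were -1.08, -0.92, -0.32 and -1.07, and for Hoxa5 (adjusted p = 0.0397) 0.16, 0.42, -0.27 and -0.03. Of these genes Hoxc10 and Hoxb3 changed in 1 direction in all 4 tumours.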

How the results depend on the processing

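Of 20 counts of Hox genes, all 20 stayed within 1.5 times under quantile normalization, the floor at the 10th percentile, no mean-variance trend, the second brightest probe and the replicate block. Replicate numbers showed no common pairing of the arrays (median r of same-numbered deviations -0.25 to 0.23 by tumour and experiment). In mmca after carbon ions all 15 values of r were above 0 (0.022 to 0.28, median 0.14). The fit with the replicate block gave 31 of 34 Hox genes for the 6 tumours after carbon ions, 25 of 29 for the late gamma days and 18 of 34 for carbon day 20, the same counts as without it. The difference among tumours at gamma day 1 fell from 7 genes to 4 with the brightness filter and to 3 with missing values at the floor, and rose to 12 with 1 fit over the arrays of both experiments. That fit also took mmca against mca4 from 5 to 0 (7 at an unadjusted p under 0.05) and carbon hour 6 and day 1 from 5 to 0 (5 unadjusted). With 1 value per group the counts were 2 for gamma day 1, 11 for the late gamma days, 5 for 70 against 30 Gy, 0 for carbon day 20 against day 5 and 11 for the 6 tumours after carbon ions; this setting has fewer samples. In the late gamma comparison Hoxb1 (-0.047) and Hoxd13 (-0.040) reversed under quantile normalization, as did Hoxa5 in 70 against 30 Gy (0.042). The cause of these reversals was not tested. Hoxa4 in mca4 against the others reversed with missing values at the floor (-0.46), a setting that put 1 missing day-5 mca4 value at the floor. Leaving out single arrays gave 28 to 31 for the 6 tumours after carbon ions, 12 to 20 for scc7 against the others (12 without its second array), 1 to 6 for mmca against mca4, 3 to 6 for carbon hour 6 and day 1, 15 to 19 for carbon day 20, 15 to 19 for gamma day 1 and 23 to 26 for the late gamma days. The dimmest genes, Hoxb4, Hoxb1, Hoxd11 and Hoxa6, were limited by the floor.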
